A study of Mus musculus with 8 samples.

Results

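The 34 genes described here encode the digestive enzymes of the pancreatic acinar cell, the proteins of its secretory granules, its protease inhibitors and the transcription factors that define it. They were chosen by name, and all 34 were found among the 54532 genes of the count table. The libraries came from tumours of C57BL/6 mice whose pancreas had been implanted with KPC cells, a cultured mouse line of pancreatic ductal adenocarcinoma. The mice had been given TLQP21, a fragment of the secreted neuroprotein VGF, or saline for 2 weeks. Each treatment was represented by 4 libraries, called TLQP21 1 to 4 and Saline 1 to 4 after the sample titles. All 8 shared the KPC cells, the strain and the orthotopic site. The labels give pancreatic cancer cells as the cell type, but the RNA was taken from harvested tumours, so it mixes implanted cells with whatever host tissue the tumour held. The labels do not give the sex or age of the mice, nor do they say that the libraries of a group came from separate mice, so the p-values below rest on the spread among these libraries, part of which may be technical.

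Acinar cells make up most of the exocrine pancreas and devote most of their protein synthesis to a small set of secreted enzymes. Many of the proteases are made as inactive zymogens, are stored in zymogen granules and are released into the duct when the gut hormone cholecystokinin or acetylcholine acts on the cell. In the gut lumen enteropeptidase removes a short peptide from trypsinogen, and the trypsin so formed activates the other zymogens. The transcription factor complex PTF1, which contains Ptf1a and Rbpjl, drives the enzyme genes, and Bhlha15 and Nr5a2 help to maintain the acinar state. Acinar cells that lose this state take on duct-like features, a step known as acinar-to-ductal metaplasia, from which pancreatic cancer can start in mice.

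The libraries summed to 29.03, 33.5, 30.1 and 32.8 M counts in TLQP21 1 to 4, against 28.96, 28.9, 28.5 and 28.4 M counts in Saline 1 to 4. The depths did not overlap, with TLQP21 above Saline throughout (two-sided exact permutation p = 0.0286, as small as 4 against 4 allows). Libraries 1 and 2 of each treatment held Xist, which is made from the inactive X chromosome, and libraries 3 and 4 held Y-linked transcripts, a split that the labels do not mention. Saline 2 stood apart by hepatocyte transcripts, with 5491 summed CPM over 12 liver markers, against at most 161 CPM in the other 7 libraries. CPM are gene counts brought to a common library total with TMM scaling, a correction for differences in composition between libraries.

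The acinar genes took a sizeable and uneven share of the reads. They held 4.18%, 1.65%, 3.14% and 1.54% of all gene counts in TLQP21 1 to 4, against 1.67%, 3.32%, 1.92% and 6.94% in Saline 1 to 4. The mean was 2.63 ± 1.27% in TLQP21 and 3.46 ± 2.43% in Saline (SD, n = 4 each). Saline 4 was by far the highest, TLQP21 1 was next, and the other 3 Saline libraries lay inside the range of the TLQP21 libraries. The difference in mean share, TLQP21 minus Saline, was -0.834 percentage points with all libraries and 0.325 without Saline 4. In bulk tumour RNA, fewer acinar cells and less enzyme RNA per acinar cell cannot be told apart.

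**Figure D1:**
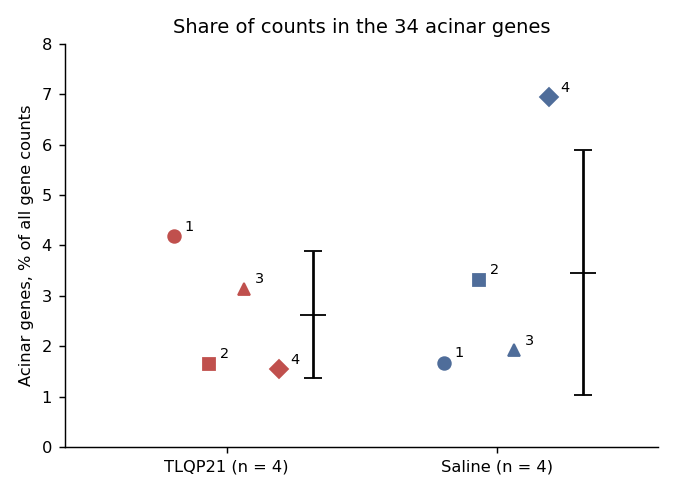
Percent of all gene counts in the 34 acinar genes, for the 4 TLQP21 libraries on the left and the 4 Saline libraries on the right. Points are libraries with their replicate number, and the bar beside them is the mean with its SD. Saline 4 lies at 6.94%, and the other 7 libraries lie between 1.54% and 4.18%.

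Per length, the acinar genes spanned a wide range of levels, and the zymogens stood at the top. RPKM, which are CPM divided by the gene's length in kilobases, averaged 8671 over the 8 libraries for Ctrb1 and 2698 for Prss2. Try4 averaged 1626 RPKM, Try5 1471, Cela2a 1216, Pnliprp1 1177 and Pnlip 1144. The 4 transcription factors lay near the bottom, with 4.89 RPKM for Rbpjl, 3.84 for Bhlha15, 0.995 for Nr5a2 and 0.995 for Ptf1a, and Prss1 was lowest at 0.455 RPKM. Summed by role, chymotrypsinogens made up 26.9% of the acinar counts, trypsinogens 21.003%, lipases and their cofactors 19.0%, elastases 15.1% and carboxypeptidases 10.7%. Amylase, ribonuclease and kallikrein made up 3.58%, the granule proteins 3.30%, the inhibitors 0.294% and the transcription factors 0.159%.

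**Figure D2:**
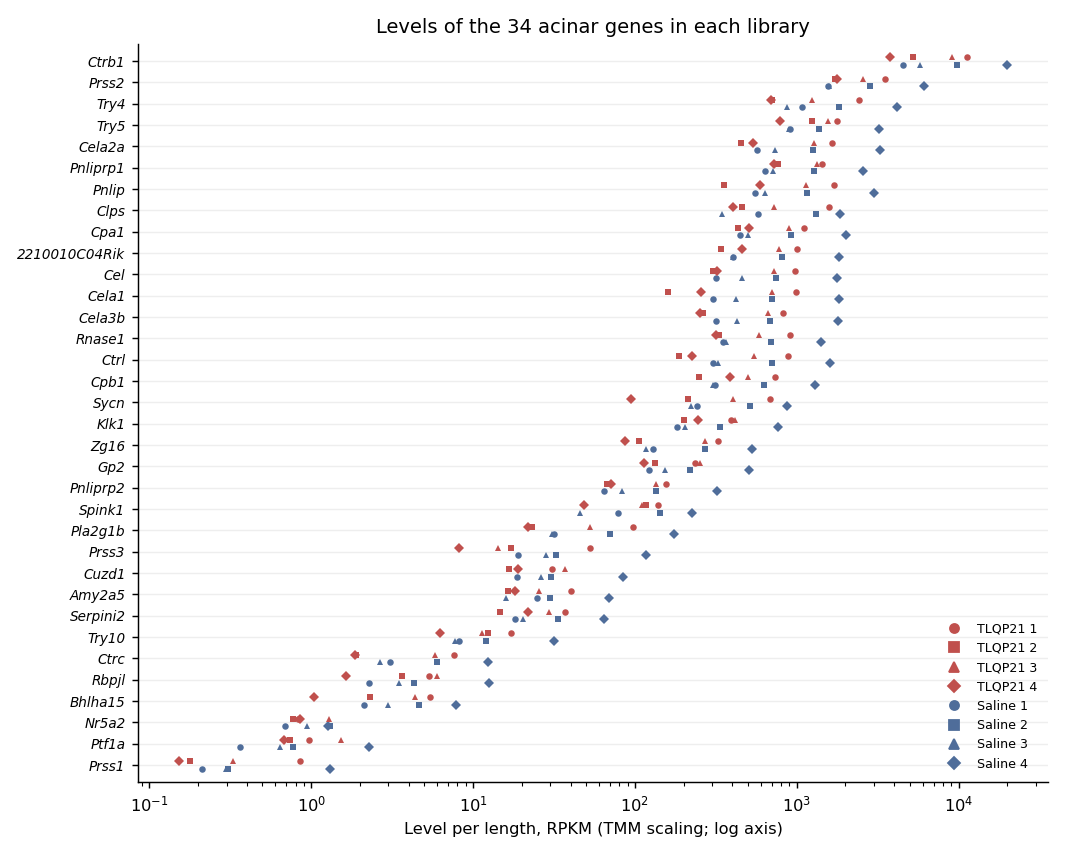
Level per length of each of the 34 acinar genes in each library, in RPKM on a log axis, with genes ordered by their mean. TLQP21 libraries are red and drawn above the Saline libraries of the same gene in blue, and the marker shape gives the replicate number. The levels run from 0.455 RPKM (Prss1) to 8671 RPKM (Ctrb1) as means over the 8 libraries, and Saline 4 is the highest library for 33 of the 34 genes.

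The comparison of TLQP21 with Saline asks whether the peptide goes with a change of the acinar programme in the tumour. Of the 34 genes, 33 passed the filter on low counts, Prss1 being the exception. None of the 33 passed the threshold of 0.05 after adjustment over all 18238 tested genes (edgeR quasi-likelihood test with Benjamini-Hochberg adjustment, adjusted p = 0.9999 for each), where the background was 0% of all tested genes. Likewise 0 of 33 had an unadjusted p under 0.05, against 3.06% of all tested genes, and 0 of 33 had groups that did not overlap, against 1.66%. DESeq2 called 4 genes (0.0124% of 32380) and limma called 1 (0.00548%), and no acinar gene was among them. The smallest unadjusted p of the edgeR test among the acinar genes was 0.133, for Prss3.

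The fitted log2 fold changes, TLQP21 over Saline, were below 0 for 33 of 33 tested acinar genes, against 49.4% of all tested genes. Their median was -0.44, beside 0.0020 over all tested genes, and they ran from -1.10 (Prss3) to -0.04 (Ptf1a). This shared sign rested on Saline 4. Without Saline 4, 2 of 33 were below 0 (Prss3 at -0.21 and Nr5a2 at -0.08), against 50.6% of all genes tested in that fit, and the median was 0.17. Without TLQP21 1, the highest of the TLQP21 libraries, the median was -0.75. The standard errors were 0.25 to 0.67, and all 33 of the 95% intervals contained 0. A level 2-fold lower in TLQP21 lay inside 32 of those intervals, Nr5a2 being the exception, and a level 2-fold higher lay inside 1.

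**Figure D3:**
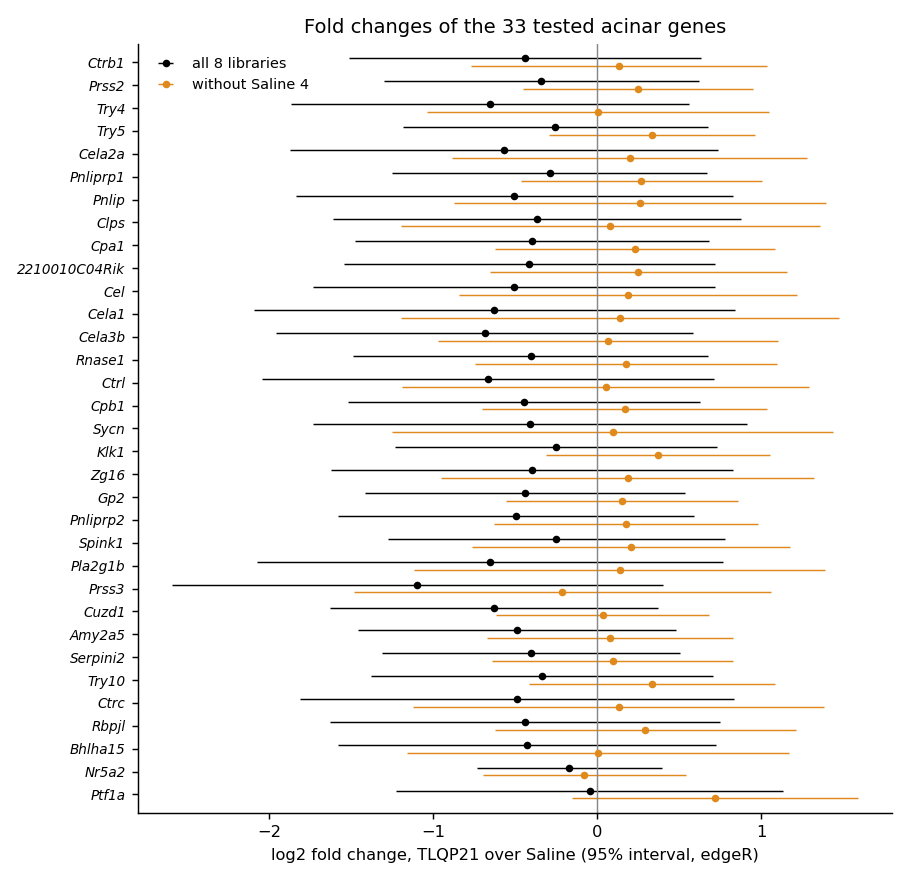
Fitted log2 fold change, TLQP21 over Saline, with its 95% interval from edgeR for each of the 33 tested acinar genes, ordered by level per length. Black gives the fit on all 8 libraries and orange the fit without Saline 4. All black points lie left of 0, with a median of -0.44, and 31 of the 33 orange points lie right of 0, with a median of 0.17.

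The trypsinogens are the zymogens of trypsin and include 7 of the 34 genes, all between positions 41030268 and 41525079 of mouse chromosome 6. Their coding sequences are close copies of each other, which bears on how far reads can be given to a single gene. The stretches below show 90 coding bases of 5 of them, 5′ to 3′ in the sense of the gene, from the GENCODE M21 transcripts of GRCm38. Capitals mark 4 aspartate codons and the codon of the lysine after which enteropeptidase cuts, and in 2210010C04Rik the codon just before the capitals also encodes aspartate.
Prss2: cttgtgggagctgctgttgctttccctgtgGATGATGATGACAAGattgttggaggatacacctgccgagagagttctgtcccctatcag
Try4: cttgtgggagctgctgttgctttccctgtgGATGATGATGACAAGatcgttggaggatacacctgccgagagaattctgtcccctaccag
Try5: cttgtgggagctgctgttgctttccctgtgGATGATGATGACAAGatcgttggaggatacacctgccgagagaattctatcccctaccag
Prss3: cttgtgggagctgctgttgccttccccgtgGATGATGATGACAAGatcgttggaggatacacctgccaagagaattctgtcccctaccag
2210010C04Rik: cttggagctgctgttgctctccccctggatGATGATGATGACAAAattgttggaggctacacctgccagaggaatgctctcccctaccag
Over the whole coding sequence Try4 and Try5 were 97.4% identical, Prss3 and Prss1 96.3% and Try4 and Try10 95.4%, whereas 2210010C04Rik was 75.0% to 75.8% identical to the others. Of the stretches of 150 bases (the read length) in each transcript, 19.2% of those of Try4 also occurred in Try5 and 19.2% of those of Try5 in Try4. For Prss3, 31.2% occurred in Gm10334, Gm5771 or Prss1, and for Prss1, 3.66% in Gm10334 or Prss3. None of the stretches of Prss2, Try10 or 2210010C04Rik occurred in another gene. The counts of Try4, Try5, Prss3 and Prss1 are therefore uncertain in how reads divide among near-identical genes.

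Prss2 (ENSMUSG00000057163, chr6:41521787-41525079, plus strand of GRCm38) was the most abundant trypsinogen per length. It had 2842, 1402, 2078 and 1445 CPM in TLQP21 1 to 4, against 1263, 2319, 1295 and 4947 CPM in Saline 1 to 4. Saline 4 was the highest and Saline 1 the lowest, so the Saline libraries spanned those of TLQP21. Its log2 fold change was -0.34 (SE 0.43, interval -1.30 to 0.62) with all libraries and 0.25 without Saline 4. Try4, Try5 and 2210010C04Rik were also highest in Saline 4, at 3351, 2916 and 3898 CPM. They were next highest in TLQP21 1, at 1930, 1599 and 2149 CPM. Their log2 fold changes were -0.65, -0.26 and -0.41 with all libraries, and 0.0045, 0.34 and 0.25 without Saline 4. Try10, at much lower levels, had 5.34 to 14.8 CPM in TLQP21 and 6.66 to 27.2 CPM in Saline, with a log2 fold change of -0.34 (0.34 without Saline 4).

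Prss3 (ENSMUSG00000071519, chr6:41373814-41377678, minus strand) had the widest range of the 34 acinar genes, with its highest library 14.2-fold above its lowest. It had 43.1, 14.02, 11.7 and 6.73 CPM in TLQP21 1 to 4, against 15.6, 26.9, 23.1 and 95.8 CPM in Saline 1 to 4. TLQP21 3 and TLQP21 4 were the lowest libraries, TLQP21 1 was higher than 3 of the Saline libraries, and the groups overlapped. The log2 fold change of -1.10 (SE 0.67, interval -2.59 to 0.40) was the most negative of the 33, and it was -0.21 without Saline 4 and -1.90 without TLQP21 1. Measured against Prss2 in the same library, Prss3 had 1.52, 1.0003, 0.564 and 0.466 reads per 100 Prss2 reads in TLQP21 1 to 4, against 1.23, 1.16, 1.79 and 1.94 in Saline 1 to 4. Those ratios overlapped between the groups through TLQP21 1. Prss1 had 20, 5, 8 and 4 reads in TLQP21 1 to 4, against 5, 7, 7 and 28 reads in Saline 1 to 4, too few to be tested.

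Ctrb1 (ENSMUSG00000031957, chr8:111686519-111691010, minus strand) encodes chymotrypsinogen B, a protease zymogen that trypsin activates, and was the most abundant acinar transcript. It had 9954, 4615, 7961 and 3303 CPM in TLQP21 1 to 4, against 3983, 8527, 5065 and 17495 CPM in Saline 1 to 4. By itself it held 0.326% to 1.002% of all gene counts in TLQP21 and 0.404% to 1.63% in Saline. Its log2 fold change was -0.44 (SE 0.48, interval -1.51 to 0.63) with all libraries and 0.13 without Saline 4. Ctrl, a chymotrypsin-like protease, had 1026, 218, 626 and 262 CPM in TLQP21 1 to 4, against 352, 808, 376 and 1843 CPM in Saline 1 to 4. TLQP21 2 and TLQP21 4 were its lowest libraries, and its log2 fold change was -0.66 (0.05 without Saline 4). Ctrc, chymotrypsin C, which degrades trypsinogen in humans, had 2.66 to 10.9 CPM in TLQP21 and 3.78 to 17.7 CPM in Saline. The span of Ctrc in the deposited table, chr4:141814962-141846359, takes in that of Cela2a on the same strand, 21.4% of its exonic bases overlap other genes, and it had 0.289 to 0.382 reads per 100 Cela2a reads in TLQP21 and 0.300 to 0.450 in Saline. The log2 fold change of Ctrc was -0.49 (0.13 without Saline 4).

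The elastases among the 34 genes were Cela1, Cela2a and Cela3b. Cela1 (ENSMUSG00000023031, chr15:100674421-100687921, minus strand) had 2278, 371, 1624 and 593 CPM in TLQP21 1 to 4, against 698, 1626, 972 and 4219 CPM in Saline 1 to 4. TLQP21 2 and TLQP21 4 lay below every Saline library, TLQP21 1 lay above 3 of them, and the highest library exceeded the lowest 11.4-fold, beside a median of 5.32-fold over the 34 genes. Its log2 fold change was -0.63 (SE 0.66, interval -2.09 to 0.84) with all libraries and 0.14 without Saline 4. Cela2a had 777 to 2860 CPM in TLQP21 and 977 to 5621 CPM in Saline, with a log2 fold change of -0.57 (0.20 without Saline 4). Cela3b had 418 to 1364 CPM in TLQP21 and 525 to 2976 CPM in Saline, with a log2 fold change of -0.68 (0.07 without Saline 4). Of the 150-base stretches, 17.5% of those of Cela2a occurred in Ctrc and 1.80% of those of Cela3b in Cela3a.

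The lipid-digesting genes were Pnlip, the pancreatic triglyceride lipase, its cofactor Clps (colipase), the lipase-related Pnliprp1 and Pnliprp2, the bile-salt-activated lipase Cel and the phospholipase Pla2g1b. Pnlip (ENSMUSG00000046008, chr19:58670365-58681786, plus strand) had 2520, 528, 1685 and 886 CPM in TLQP21 1 to 4, against 825, 1725, 952 and 4468 CPM in Saline 1 to 4. TLQP21 2 was its lowest library and Saline 4 its highest. Pnliprp1, at chr19:58728887-58744169, had 2303, 1241, 2156 and 1163 CPM in TLQP21 1 to 4, against 1030, 2058, 1155 and 4142 CPM in Saline 1 to 4. For Pnliprp1, TLQP21 2 lay above Saline 1 and Saline 3, and the groups overlapped for both genes. The log2 fold changes were -0.50 for Pnlip and -0.29 for Pnliprp1 with all libraries, and 0.26 and 0.27 without Saline 4.

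Clps, the colipase, had 964, 279, 442 and 247 CPM in TLQP21 1 to 4, against 354, 799, 211 and 1128 CPM in Saline 1 to 4, with Saline 3 lowest. The log2 fold change of Clps was -0.37 (0.08 without Saline 4). Cel had 640 to 2052 CPM in TLQP21 and 671 to 3742 CPM in Saline, Pnliprp2 had 105 to 243 CPM in TLQP21 and 101 to 503 CPM in Saline, and Pla2g1b had 15.5 to 69.8 CPM in TLQP21 and 22.0 to 124 CPM in Saline. Their log2 fold changes were -0.51, -0.49 and -0.65 with all libraries, and 0.19, 0.18 and 0.14 without Saline 4. The TLQP21 and Saline ranges overlapped for each of the 6 lipid-digesting genes.

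Cpa1 and Cpb1 encode procarboxypeptidases, which remove single residues from the carboxyl end of peptides. Cpa1 had 1932, 754, 1561 and 891 CPM in TLQP21 1 to 4, against 776, 1622, 869 and 3510 CPM in Saline 1 to 4. Cpb1 had 2408, 822, 1635 and 1271 CPM in TLQP21 1 to 4, against 1029, 2052, 998 and 4273 CPM in Saline 1 to 4. Both were highest in Saline 4 and lowest in TLQP21 2, with the other libraries interleaved. Their log2 fold changes were -0.40 and -0.44 with all libraries, and 0.23 and 0.17 without Saline 4.

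Amy2a5 is 1 of several near-identical copies of the pancreatic amylase gene, which encodes the starch-cutting enzyme. Its count is uncertain, since 44.8% of its 150-base stretches occurred in Amy2a1, Amy2a2, Amy2a3, Amy2a4 or Amy2b. It had 159, 65.1, 102 and 71.8 CPM in TLQP21 1 to 4, against 98.7, 120, 63.9 and 277 CPM in Saline 1 to 4. Rnase1, the secreted ribonuclease, had 895, 326, 580 and 316 CPM in TLQP21 1 to 4, against 345, 691, 365 and 1404 CPM in Saline 1 to 4. Klk1, the tissue kallikrein that releases kinins, had 217 to 445 CPM in TLQP21 and 195 to 828 CPM in Saline. In each of the 3 genes the groups overlapped and Saline 4 was highest. The log2 fold changes were -0.49 for Amy2a5, -0.40 for Rnase1 and -0.25 for Klk1, and 0.08, 0.18 and 0.37 without Saline 4.

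The zymogen granule genes encode proteins of the granule membrane and content. Sycn (syncollin, ENSMUSG00000084174, chr7:28540885-28542209, plus strand) had 380, 118, 225 and 52.8 CPM in TLQP21 1 to 4, against 135, 284, 123 and 485 CPM in Saline 1 to 4. TLQP21 4 lay far below the other libraries, more so than for the enzymes, with 3.65 Sycn reads per 100 Prss2 reads, against 8.39 to 13.4 in the other TLQP21 libraries and 9.53 to 12.3 in Saline. Gp2, the main glycoprotein of the granule membrane, had 228 to 505 CPM in TLQP21 and 244 to 1008 CPM in Saline. Zg16, a lectin-like granule protein, had 109 to 410 CPM in TLQP21 and 148 to 661 CPM in Saline, and Cuzd1, a granule membrane protein, had 37.8 to 83.1 CPM in TLQP21 and 42.1 to 191 CPM in Saline. The log2 fold changes were -0.41 for Sycn, -0.44 for Gp2, -0.40 for Zg16 and -0.63 for Cuzd1 with all libraries, and 0.09, 0.15, 0.19 and 0.03 without Saline 4.

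Spink1, which inhibits trypsin that becomes active too early, had 58.5, 49.4, 46.4 and 20.5 CPM in TLQP21 1 to 4, against 32.9, 60.7, 19.3 and 94.8 CPM in Saline 1 to 4. The lowest library was Saline 3, and the groups overlapped widely. Set against its main target, Spink1 had 2.06, 3.52, 2.23 and 1.42 reads per 100 Prss2 reads in TLQP21 1 to 4, against 2.61, 2.62, 1.49 and 1.92 in Saline 1 to 4. Serpini2, a serpin of the pancreas, had 20.8 to 52.3 CPM in TLQP21 and 25.8 to 90.4 CPM in Saline. The log2 fold changes were -0.25 for Spink1 and -0.40 for Serpini2, and 0.21 and 0.09 without Saline 4.

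Among the transcription factors, Ptf1a and Rbpjl form the acinar PTF1 complex, Bhlha15 (MIST1) organises the secretory apparatus, and Nr5a2 is a nuclear receptor that is also made outside acinar cells. Rbpjl had 30.7, 20.8, 34.1 and 9.42 CPM in TLQP21 1 to 4, against 13.1, 24.8, 19.9 and 71.4 CPM in Saline 1 to 4. Bhlha15 had 18.8, 8.09, 15.3 and 3.61 CPM in TLQP21 1 to 4, against 7.39, 16.2, 10.4 and 27.5 CPM in Saline 1 to 4. Both tracked the enzymes across libraries, with Saline 4 highest and TLQP21 4 lowest. Their log2 fold changes were -0.44 and -0.43 with all libraries, and 0.30 and 0.0056 without Saline 4.

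Ptf1a (ENSMUSG00000026735, chr2:19445663-19447501, plus strand) had 1.47, 1.12, 2.29 and 1.02 CPM in TLQP21 1 to 4, against 0.545, 1.16, 0.961 and 3.44 CPM in Saline 1 to 4. Saline 4 was highest and Saline 1 lowest, and TLQP21 1 and TLQP21 3 lay above the other 3 Saline libraries. Its log2 fold change was -0.04 (SE 0.53, interval -1.22 to 1.14), and without Saline 4 it was 0.72, the most positive of the 33. It was 0.07 without TLQP21 2 and 0.09 without TLQP21 4, so its sign was not settled. Ptf1a reads cannot be told from those of Ptf1aos, which lies on the opposite strand over 40.4% of its exonic bases, since the strand setting of the counting is not given in the sources used here.

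Nr5a2 (ENSMUSG00000026398, chr1:136842571-136960448, minus strand) varied least. It had 4.86, 4.58, 7.60 and 5.06 CPM in TLQP21 1 to 4, against 4.08, 7.74, 5.56 and 7.49 CPM in Saline 1 to 4. It was the 1 acinar gene whose highest library was not Saline 4 but Saline 2, and its highest library exceeded its lowest 1.89-fold. Its log2 fold change was -0.17 (SE 0.25, interval -0.74 to 0.40). It was -0.08 without Saline 4, -0.36 without TLQP21 3 and -0.05 without Saline 2. Per 100 Prss2 reads, Nr5a2 had 0.171, 0.327, 0.366 and 0.351 reads in TLQP21 1 to 4, against 0.323, 0.334, 0.429 and 0.151 reads in Saline 1 to 4. TLQP21 1 and Saline 4, the libraries richest in enzyme transcripts, had the lowest ratios.

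The acinar genes moved together from library to library. The same 4 libraries, Saline 4, TLQP21 1, Saline 2 and TLQP21 3, were the highest for 30 of the 34 genes, and TLQP21 1 was the second highest for 27. Saline 4 exceeded the next library 1.78-fold and the mean of the other Saline libraries 3.21-fold, as medians over the genes. The median deviation from each gene's own mean log2 level was 0.62, -0.72, 0.28 and -0.86 in TLQP21 1 to 4, against -0.63, 0.35, -0.55 and 1.44 in Saline 1 to 4. Saline 1 and Saline 3 thus lay near TLQP21 2 and TLQP21 4, and for 25 of the 34 genes Saline 1, 2 and 3 all lay inside the TLQP21 range. The SD of log2 CPM within a group had a median of 0.72 in TLQP21 and 1.003 in Saline over the 33 tested acinar genes, against 0.252 in TLQP21 and 0.206 in Saline over all tested genes. Genes at 10 CPM or more had smaller values still, 0.189 in TLQP21 and 0.140 in Saline.

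**Figure D4:**
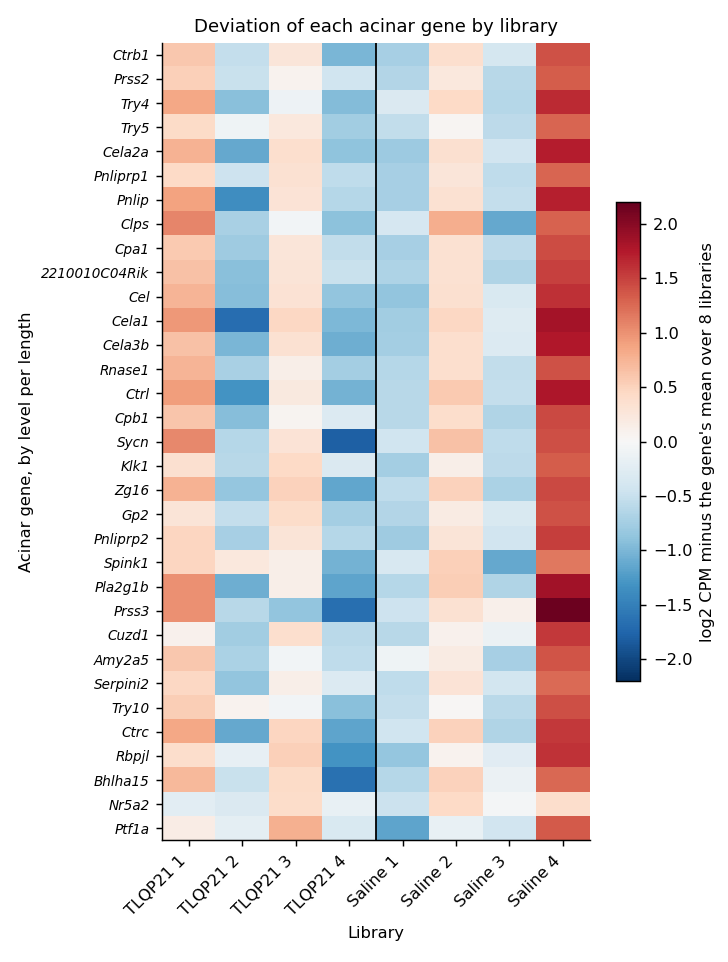
Deviation of each tested acinar gene in each library from the gene's own mean log2 CPM over the 8 libraries, with TLQP21 libraries left of the line and Saline libraries right of it, and genes ordered by level per length. Red is above the gene's mean and blue below it. Saline 4 is red for every gene, with a median of 1.44, and Nr5a2 is pale throughout.

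Once the median deviation of each library was subtracted, Rnase1 had the smallest SD, 0.09 on the log2 scale, against 0.80 before. Prss3 (0.66, against 1.19 before) and Nr5a2 (0.63, against 0.36 before) had the largest. The SD of Nr5a2 rose, since it followed the subtracted library level only in part. The make-up of the acinar transcripts was not the same in every library. Cela1 had 80.2, 26.5, 78.2 and 41.0 reads per 100 Prss2 reads in TLQP21 1 to 4, against 55.3, 70.1, 75.1 and 85.3 in Saline 1 to 4. Pnlip had 88.7, 37.7, 81.1 and 61.3 in TLQP21 1 to 4, against 65.3, 74.4, 73.5 and 90.3 in Saline 1 to 4. For both genes TLQP21 2 and TLQP21 4 lay below every Saline library and TLQP21 1 and 3 lay among or near the highest, so the groups overlapped. Ctrl had the same form, with 15.5 and 18.1 reads per 100 Prss2 reads in TLQP21 2 and 4, 36.1 and 30.1 in TLQP21 1 and 3, and 27.8 to 37.3 in Saline. Saline 1 and Saline 3, whose acinar share was about as low as that of TLQP21 2 and 4, had higher ratios than those libraries for each of these genes. Saline 1 was the lowest Saline library for each, and its 65.3 for Pnlip lay near the 61.3 of TLQP21 4. With the library median subtracted, Prss2 itself was at 0.23 and 0.42 in TLQP21 2 and 4, against -0.11 to -0.01 in Saline. Part of the low ratios in those libraries thus lies in Prss2. On that scale Pnlip, Cela1 and Ctrl were at -0.65, -0.95 and -0.59 in TLQP21 2. In TLQP21 4 they were at 0.24, -0.13 and -0.18. Pnliprp1 kept close to Prss2, with 80.5 to 103.8 reads per 100 in TLQP21 and 81.5 to 89.2 in Saline. These ratios were looked at after the values were seen, and no test was made of them.

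**Figure D5:**
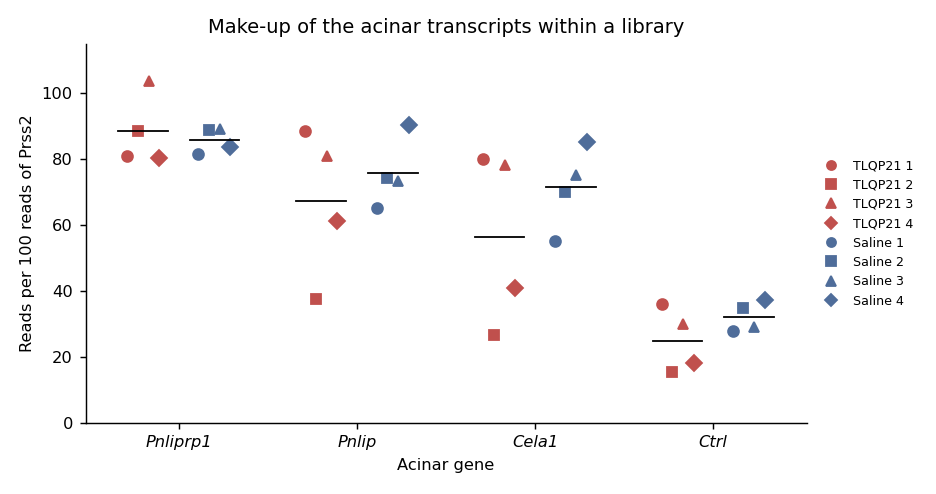
Reads of 4 acinar genes per 100 reads of Prss2 in the same library, with the TLQP21 libraries left of the Saline libraries for each gene and a line at each group's mean. Pnliprp1 lies between 80.5 and 103.8 in all libraries, and for Pnlip, Cela1 and Ctrl the lowest points are TLQP21 2 and TLQP21 4.

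Within the libraries that held Xist, 2 of 33 acinar genes had a lower mean in TLQP21 (Cuzd1 and Nr5a2), against 51% of all tested genes, and the median log2 ratio was 0.19. Within those with Y-linked transcripts, 33 of 33 had a lower mean in TLQP21, against 49.2% of all tested genes, and the median was -0.97. Each side of the split holds 2 libraries a treatment, and Saline 4 is among those with Y-linked transcripts. The difference between the 2 sides was tested as an interaction in edgeR. None of the 33 passed the threshold (smallest adjusted p = 0.842), as 0% of all tested genes did, and 1, Prss3, had an unadjusted p under 0.05, against 4.8% of all tested genes. The log2 difference of Prss3 between the sides was -3.11.

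Other genes of the acinar cell were counted from lists chosen with these results known. Of 17 tested other secretory products, 15 had a fold change below 0 with a median of -0.44, and 10 without Saline 4, while none passed the threshold in edgeR. Among them Tff2, a trefoil peptide, had 60.0 to 121 CPM in TLQP21 and 93.9 to 190 CPM in Saline. Gm10334, a trypsin-like gene that shares sequence with Prss3, had 25, 6, 8 and 5 reads in TLQP21 1 to 4, against 4, 18, 15 and 87 reads in Saline 1 to 4, so it too was highest in Saline 4. Dmbt1, a scavenger receptor protein and the most abundant of that list, had 3742 to 5205 CPM in TLQP21 and 3117 to 6419 CPM in Saline and did not follow the enzymes.

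Of 20 tested genes of the acinar endoplasmic reticulum, amino acid supply and water transport, 19 were below 0 with a median of -0.19, and 13 without Saline 4. Hspa5, the chaperone BiP and the most abundant of them, had 1259 to 1539 CPM in TLQP21 and 1239 to 1700 CPM in Saline. Gnmt, which uses methionine-derived methyl groups, had 0.679 to 3.797 CPM in TLQP21 and 45.3 CPM in Saline 2, the library with liver transcripts, against 2.08 to 8.36 CPM in the other Saline libraries. Of 17 tested genes of regulated exocytosis and of the secretagogue receptors, 12 were below 0, with a median of -0.04, and 8 without Saline 4. Vipr1, a receptor for vasoactive intestinal peptide, had 1.95, 1.67, 2.36 and 1.08 CPM in TLQP21 1 to 4, against 2.69, 3.36, 3.09 and 3.29 CPM in Saline 1 to 4. Its groups did not overlap, as was so for 1.66% of all tested genes. The log2 fold change of Vipr1 was -0.82, and it did not pass the threshold (adjusted p = 0.9999, edgeR). Of 14 partner transcription factors 8 were below 0, with a median of -0.01, and 5 without Saline 4. Hnf4a, the most abundant of them, had 220 to 237 CPM in TLQP21 and 216 to 246 CPM in Saline.

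The summed markers of ducts and of acinar-to-ductal metaplasia varied less between libraries than the enzymes. Of 16 tested, 6 were below 0 (5 without Saline 4) and none passed the threshold, and they summed to 14386 to 17495 CPM in TLQP21 and 15202 to 15949 CPM in Saline. Krt19, a duct keratin that the KPC cells also make, had 1038 to 1332 CPM in TLQP21 and 968 to 1104 CPM in Saline. Single markers could vary more than the sum. Car2 of the same list had 21.2 to 74.1 CPM in TLQP21 and 24.0 to 134 CPM in Saline. The list of 10 epithelial markers chosen for the implanted cells shares Krt19, Epcam and Muc1 with the duct list. Its sums do not separate implanted from host epithelium. They were 4157 to 4372 CPM in TLQP21 and 3874 to 4421 CPM in Saline, with 4 of 10 markers below 0 (6 without Saline 4). Of the genes that activate or answer to trypsin, Tmprss15, which encodes enteropeptidase, had 0.029 CPM in TLQP21 2 and no read in the other 7 libraries, and Ctsb, the lysosomal protease cathepsin B, had 1132 to 1391 CPM in TLQP21 and 1190 to 1378 CPM in Saline. The 8 that could be tested had 4 members below 0 (5 without Saline 4), and none passed the threshold. Of these, 3 had an unadjusted p under 0.05 (edgeR), against 3.06% of all tested genes, namely Serpina1b, A2m and Trpv4. Serpina1b had 133 CPM in Saline 2, the library with liver transcripts, and 0.616 to 2.08 CPM in the other libraries. A2m had 32.8 to 44.2 CPM in TLQP21 and 37.2 to 80.8 CPM in Saline. Trpv4 had 38.4 to 48.4 CPM in TLQP21 and 29.8 to 42.7 CPM in Saline.

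Some markers of other cells were high in Saline 4 or TLQP21 1, the libraries richest in acinar transcripts. Their part in the acinar differences was not tested. The 10 fibroblast markers summed to 8492, 6663, 6859 and 6118 CPM in TLQP21 1 to 4, against 6265, 5924, 5787 and 11586 CPM in Saline 1 to 4. The sums were highest in Saline 4 and TLQP21 1, as for the enzymes, but the other libraries did not keep the order of the enzymes. Saline 2, with an acinar share of 3.32%, had a lower fibroblast sum than TLQP21 2, with a share of 1.65%. Col3a1, the most abundant of them, had 4488 CPM in Saline 4 and 3329 CPM in TLQP21 1, against 2177 to 2481 CPM in the other libraries. Not every fibroblast marker followed, since Postn and Fap were highest in TLQP21 4 and Acta2 in TLQP21 3. Of the 10 fibroblast markers 5 had a fold change below 0, and 0 without Saline 4. The 12 islet markers summed to 209 to 298 CPM in TLQP21 and 128 to 438 CPM in Saline, with Saline 4 highest, Saline 1 second and Saline 3 lowest. Ttr, which is also on the hepatocyte list, had 125 CPM in Saline 2, against 2.50 to 4.42 CPM in the other libraries. Of the 12 islet markers 11 were below 0, Ttr among them, and 5 without Saline 4. Of the salivary gland markers, Bpifa2, Smr3a, Dcpp1 and Prol1 had no read in any library, and 2 of 10 could be tested. Klk1b5, a kallikrein of that list, had 4.20 to 11.2 CPM in TLQP21 and 6.25 to 27.0 CPM in Saline, with Saline 4 highest. The 10 leukocyte markers summed to 518 to 723 CPM in TLQP21 and 683 to 715 CPM in Saline, with 8 of 10 below 0, and 9 without Saline 4. Of the leukocyte markers 3 of 10 had an unadjusted p under 0.05 (edgeR), against 3.06% of all tested genes. Fibroblast markers had 2 of 10 at that cut, hepatocyte markers 5 of 7 and islet markers 1 of 12. Gastric, enterocyte, adipocyte and salivary markers had 0. Without Saline 2, the library with liver transcripts, the count was 0 for hepatocyte, islet and fibroblast markers and 3 for leukocyte markers. For 1 leukocyte marker, the macrophage gene Adgre1, the groups did not overlap, against 1.66% of all tested genes. Adgre1 had 78.4 to 107 CPM in TLQP21 and 122 to 136 CPM in Saline (adjusted p = 0.9999, edgeR). The 7 tested hepatocyte markers were all below 0, and 4 without Saline 2. Gastric markers had 4 of 6 below 0 (5 without Saline 4), enterocyte markers 4 of 7 (4 without Saline 4) and adipocyte markers 2 of 9 (1 without Saline 4). No gene of the lists of other cells passed the threshold in edgeR.

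Outside the 34 genes, those whose log2 CPM was most alike to the mean of the acinar genes over the 8 libraries were taken by Pearson's r, as a description over libraries that share these depths and treatments. Among them were Erp27 (0.993), Ggt1 (0.989), Tmed6 (0.989), Reg2 (0.986), Reg1 (0.980), Alpl (0.977), Amy2a4 (0.976), 1810028F09Rik (0.974) and Grhl1 (0.961). Reg2, a secreted lectin-like protein, had 1790, 981, 1291 and 830 CPM in TLQP21 1 to 4, against 956, 1629, 928 and 2900 CPM in Saline 1 to 4. It was highest in Saline 4 and next highest in TLQP21 1, and the groups overlapped. Within the 33 tested acinar genes, the r of a gene with the mean of the others ran up to 0.995 for Rnase1, and was lowest for Nr5a2 (0.654), Ptf1a (0.810) and Spink1 (0.818).

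Since the enzyme genes moved together, their promoters were searched for motifs that acinar transcription factors are known to bind. RefSeq promoter windows of GRCm38.p6, 250 bases before to 50 after the start, were matched for 28 of the 34 genes. Both strands were searched for the E-box CANNTG (part of the PTF1 site), the TC-box TTTCCC (its other part), the GATA site AGATAA and the NR5A2 site AAGGTCA, and matches may overlap. Of the 28 genes, 23 held an E-box (82.1%, against 72.3% of 32851 promoters) and 9 a TC-box (32.1%, against 25.2%). A GATA site was held by 11 (39.3%, against 11.2%) and an NR5A2 site by 4 (14.3%, against 4.72%). A match describes letters and is not a bound site. The windows of Ctrb1, the most abundant gene, and of Cela1, which held all 4 motifs and varied widely, are printed in the sense of the gene with matches in capitals. Ctrb1 lies at chr8:111690961-111691260 (minus strand) and Cela1 at chr15:100687871-100688170 (minus strand).
Ctrb1: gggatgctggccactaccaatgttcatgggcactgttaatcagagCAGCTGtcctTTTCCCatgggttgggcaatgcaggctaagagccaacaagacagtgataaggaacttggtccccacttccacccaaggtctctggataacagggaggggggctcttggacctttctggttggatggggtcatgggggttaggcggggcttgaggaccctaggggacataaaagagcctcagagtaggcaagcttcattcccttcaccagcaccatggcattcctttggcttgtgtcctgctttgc
Cela1: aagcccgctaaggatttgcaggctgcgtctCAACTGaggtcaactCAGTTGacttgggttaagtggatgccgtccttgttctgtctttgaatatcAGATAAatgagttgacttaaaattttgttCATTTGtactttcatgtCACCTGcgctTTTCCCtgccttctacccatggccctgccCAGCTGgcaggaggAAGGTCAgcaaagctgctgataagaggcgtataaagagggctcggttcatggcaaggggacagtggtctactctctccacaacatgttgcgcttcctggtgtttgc
In the Ctrb1 window an E-box at -205 was followed by a TC-box at -195, counted from the gene's start. In the Cela1 window 5 E-boxes were found, with a GATA site at -155, a TC-box at -99 next to the E-box at -109, and the NR5A2 site at -56. Ctrb1 and Cela1 were both highest in Saline 4 and next highest in TLQP21 1, as were most of the 34 genes. Any link of this order to the motifs was not tested.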

How the data were processed

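RNA sequencing counts of 8 tumour libraries were analysed, 4 TLQP21 and 4 Saline, with treatment and replicate number from the titles. Total RNA was built into NEBNext Ultra libraries and read as NovaSeq 150 bp paired ends, per the labels' protocols. The table deposited by the authors holds raw read counts per gene with gene lengths and GRCm38 positions. The submitters' processing notes name featureCounts 1.5.0-p3, HISAT2 2.0.5 and DESeq2 1.32.0. Strand, overlap and multi-mapping settings and the annotation release are not given in the sources used here. The 18238 genes that passed filterByExpr were fitted with edgeR 4.0.16 (R 4.3.3, TMM scaling, quasi-likelihood test, Benjamini-Hochberg adjustment, threshold 0.05), tested on simulated data. DESeq2 1.42.0 and limma 3.58.1 (voom with quality weights) were run beside it. Log2 levels used a prior count of 2. No pair of libraries was identical (lowest chi-square per degree of freedom 19.0). The acinar genes and the lists were chosen with earlier results of these data known. All 34 genes are named. From each other list the rule took up to 3 genes with the smallest unadjusted p and the most abundant, of which some are printed. Alternatives covered scaling, filters, tool, replicate block, the Xist and Y-linked split, depth and each library left out. The counts of the other lists without Saline 4 or Saline 2 were added after seeing the data. A gene among those most alike to the acinar genes is not reported here.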

Additional observations from a re-analysis of the deposited data

Results flagged for a closer look

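In each acinar gene and treatment, the gap between the most extreme library and its nearest neighbour was set against the range of the 4 libraries (against Dixon's 95% critical value). Of 68 such checks 3 passed it, and chance passes about 1 in 20 where values are normally distributed. The acinar genes moved together, so the 68 checks are not separate. The acinar share of counts, checked in the same way, did not pass in TLQP21 or in Saline. Prss3 passed in Saline, where Saline 4 had 95.8 CPM against 15.6 to 26.9 CPM in Saline 1 to 3. Prss1 passed in Saline, where Saline 4 had 1.06 CPM, or 28 reads, against 5 to 7 reads in Saline 1 to 3. Prss3 and Prss1 share part of their sequence, so these are not 2 separate observations. Nr5a2 passed in TLQP21, where TLQP21 3 had 7.60 CPM against 4.58 to 5.06 CPM in the other 3.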

How the results depend on the processing

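Over 594 refitted values of the acinar genes, 554 kept their direction, 40 reversed and 0 passed the threshold (smallest adjusted p = 0.585, over edgeR, DESeq2 and limma). None of the reversed values had passed it with all libraries. Among all genes, limma called 1 lower in TLQP21 and DESeq2 called 4, against 0 in edgeR (558 at an unadjusted p under 0.05), and none higher. With 1 library left out at a time, the number of acinar genes below 0 ran from 2 (without Saline 4) to 33, their median log2 fold change from -0.75 (without TLQP21 1) to 0.17 (without Saline 4), and the difference in acinar share from -1.43 to 0.325 percentage points. With the replicate block the median was -0.30 and 32 were below 0. Whether replicate numbers pair the libraries was not settled (correlations of same-numbered deviations 0.115, 0.194, 0.271 and -0.053, and 1 of 4 TLQP21 libraries was closest to its own number). In both treatments numbers 1 and 2 held Xist and numbers 3 and 4 Y-linked transcripts, so same-numbered libraries share the split. The block made no call. With the Xist and Y-linked split as a covariate the median was -0.40.

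Ptf1a reversed to 0.21 with the replicate block, to 0.073 with the split as a covariate and to 0.42 in limma, and ran from -0.34 to 0.72 over libraries left out. In limma Rbpjl was at 0.12, Spink1 at 0.16, Try10 at 0.20 and Try5 at 0.12. In all other genes that reversed it was without Saline 4. Lowest and highest log2 fold changes over libraries left out were as follows. Trypsinogens ran from -0.58 to 0.25 (Prss2), -1.17 to 0.0045 (Try4), -0.45 to 0.34 (Try5), -0.71 to 0.25 (2210010C04Rik) and -0.58 to 0.34 (Try10). Chymotrypsinogens ran from -0.73 to 0.13 (Ctrb1), -1.20 to 0.052 (Ctrl) and -0.92 to 0.13 (Ctrc), and elastases from -1.12 to 0.14 (Cela1), -0.95 to 0.20 (Cela2a) and -1.03 to 0.066 (Cela3b). Lipid-digesting genes ran from -0.95 to 0.26 (Pnlip), -0.51 to 0.27 (Pnliprp1), -0.95 to 0.082 (Clps), -0.87 to 0.19 (Cel), -0.75 to 0.18 (Pnliprp2) and -1.24 to 0.14 (Pla2g1b). Carboxypeptidases ran from -0.66 to 0.23 (Cpa1) and -0.75 to 0.17 (Cpb1). Amy2a5 ran from -0.81 to 0.077, Rnase1 from -0.78 to 0.18 and Klk1 from -0.48 to 0.37. Granule genes ran from -0.96 to 0.094 (Sycn), -0.75 to 0.19 (Zg16), -0.67 to 0.15 (Gp2) and -0.86 to 0.033 (Cuzd1), and inhibitors from -0.52 to 0.21 (Spink1) and -0.63 to 0.095 (Serpini2). Rbpjl ran from -0.70 to 0.30 and Bhlha15 from -0.77 to 0.0056. The 2 genes that did not reverse, Nr5a2 and Prss3, ran from -0.36 to -0.047 and from -1.90 to -0.21. The cause of these shifts was not tested. The 95% intervals of the acinar genes had a median reach of 1.13 to each side on the log2 scale with all libraries, against 0.398 over all tested genes.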
